A study of Mus musculus with 8 samples.

Results

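Integrins, syndecans, glypicans and cadherins are the main families of receptors with which a cell holds on to its matrix and to its neighbours, and their mRNA was followed in bone marrow mesenchymal stem/stromal cells (MSCs) of WT and *Dnmt3l* KO mice. Members were chosen by gene symbol: all integrin alpha and beta genes, without the genes for proteins that bind integrin tails, the collagen receptors *Ddr1* and *Ddr2*, syndecans *Sdc1* to *Sdc4*, glypicans *Gpc1* to *Gpc6* and all genes named *Cdh* with a number. The rule found 63 of the 24346 genes in the table, with 18 integrin alpha, 9 integrin beta, 1 integrin beta-like, 2 Ddr, 4 syndecan, 6 glypican and 23 cadherin genes. Of these, 46 had a mean of at least 0.1 RPKM over all libraries and were tested.

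The data comprised 8 strand-specific RNA libraries in 4 groups of 2, made from WT and KO MSCs that were undifferentiated or differentiating. All cells came from the C57BL/6 background, were grown in 20% serum and were used at passage 4. Differentiating cells had spent 3 days in osteogenic medium with 10% serum, 0.1 μM dexamethasone, 10 mM β-glycerophosphate and 50 μM ascorbic acid 2-phosphate, so that induction and the change of serum cannot be told apart. KO mice were homozygous for the *Dnmt3l* tmEnls allele and WT mice were their *Dnmt3l* +/+ littermates, all young adult females in the study's methods. Cells of several mice were mixed by genotype, and cells that carried CD11b or CD45 had been removed with magnetic beads. Whether both libraries of a group stem from separate cultures is not stated, so p-values measure the spread between these libraries, which may be technical.

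An integrin is a pair of an alpha and a beta subunit, and the pair decides the ligand: alpha 1, 2, 10 and 11 with beta 1 bind collagens, alpha 5, alpha v and alpha 8 bind proteins with an RGD motif such as fibronectin and vitronectin, and alpha 3, 6 and 7 bind laminins. Syndecans cross the membrane and glypicans are tethered to it by a lipid, and both carry heparan sulfate chains that hold growth factors and matrix proteins. Cadherins join like cells to each other through calcium-dependent contacts, and catenins link their tails to actin. Cells of the bone lineage are known for the collagen-binding integrins and for cadherin-11, long called osteoblast cadherin, and N-cadherin.

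*Dnmt3l* stood at 1.56 and 1.09 RPKM in undifferentiated WT and at 0.845 and 0.830 in differentiating WT libraries, and was listed at 0 in the 4 KO libraries. Depth, estimated from the steps between low values, lay between 48.2 and 67.0 M scaled reads per library with a median of 50.2 M. All 10 markers of stromal cells and all 9 of osteoblasts on the lists used here were measured above the minimum, and 0 of 6 epithelial markers were. Markers of other cell types passed it in part. These were 12 of 13 leukocyte, 4 of 6 platelet and megakaryocyte, 3 of 8 endothelial, 2 of 6 skeletal muscle and 2 of 5 Schwann cell and glial markers. Values are RPKM, by definition read counts scaled to transcript length and library size, which can be compared between genes. How the libraries were scaled is not given. The RPKM of all genes summed to 8.60e+05 and 8.72e+05 in undifferentiated KO and to 1.02e+06 and 1.03e+06 in differentiating KO libraries. Differences are of log2(RPKM + 0.1), in which low genes show less than their full change, and are given with their standard error (SE). A difference passed the test at a Benjamini-Hochberg adjusted p under 0.05 in limma, and a member is called a DEG where it also passed a log2 difference of 1 in size.

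With induction, members rose and fell in similar numbers in both genotypes. In WT MSCs 9 members were DEGs with higher and 8 with lower levels after induction, 37.0% of those tested, against 9.69% and 4.63% of all 15342 genes tested. In KO MSCs 12 were higher and 14 lower, 56.5% of those tested, against 13% and 9.87% of all genes. By the adjusted p alone 40 members passed in WT, where 64.4% of all genes did, and 39 in KO MSCs, where 72.9% did. The median differences of the members were 0.02 in WT and -0.01 in KO MSCs, beside 0.00 for all genes, with members moving in both directions.

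Between genotypes, 1 member was a DEG with a higher and 3 with a lower level in undifferentiated KO MSCs, against 0.613% and 1.09% of all genes. In differentiating cells 1 member was higher and 4 were lower, against 1.36% and 1.95%. By the adjusted p alone 25 members passed before and 26 after induction, against 32.2% and 40.7% of all genes. Of the 46 members, 18 passed with lower levels in KO MSCs before induction and 19 after it, where 17.5% and 22.9% of all genes did. The median difference of the members was -0.20 before and -0.15 after induction, beside 0.00 and -0.01 for all genes. These comparisons share libraries with those of induction, so the counts are given side by side and were not set against each other.

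**Figure D1:**
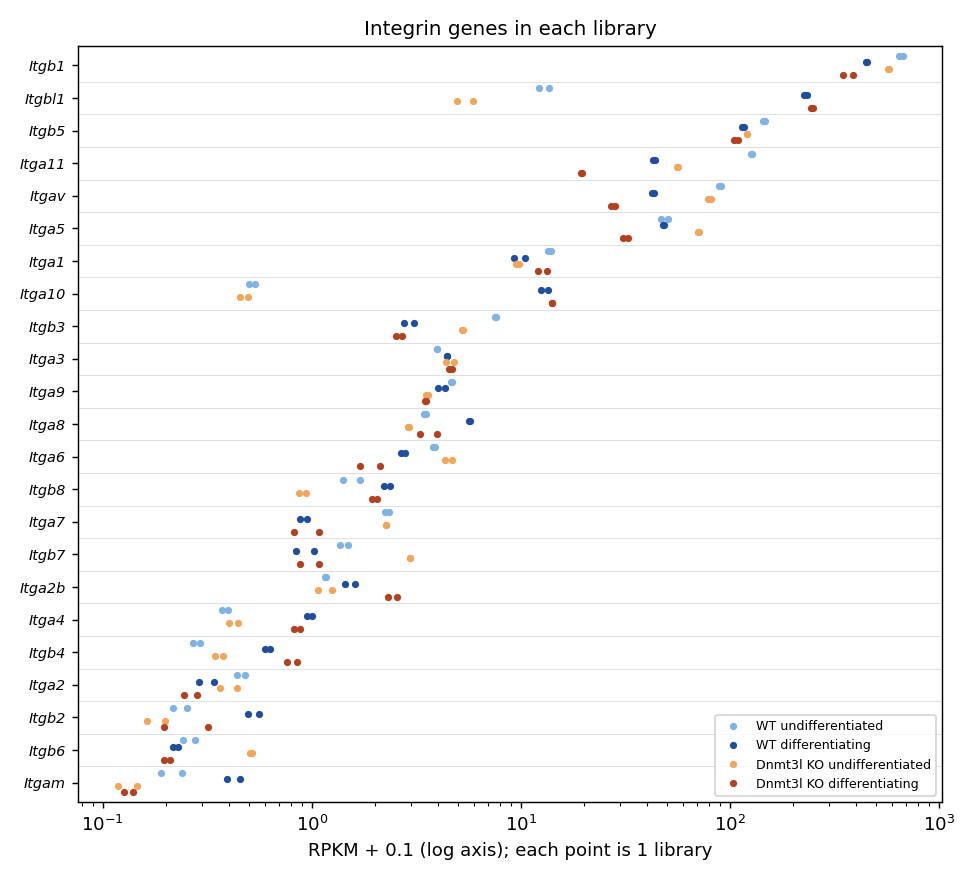
RPKM + 0.1 on a log axis for the 23 integrin genes tested, with 1 point per library and colours for genotype and state. The differentiating libraries of *Itgbl1* and *Itga10* sit far to the right of the undifferentiated ones, and those of *Itga11* sit to the left, with each KO group left of the WT group in the same state.

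The 4 collagen-binding alpha genes moved apart. *Itga11* (chr9:62677826-62783982, + strand of mm10), the subunit of the main fibrillar collagen receptor of stromal cells, was the most abundant alpha gene in undifferentiated WT MSCs. It stood at 128 and 127 RPKM in undifferentiated WT, 44.0 and 43.1 in differentiating WT, 56.7 and 56.0 in undifferentiated KO and 19.4 and 19.5 in differentiating KO MSCs. The 4 groups do not overlap, and the KO level was 0.443 of WT before and 0.447 of WT after induction. The difference of KO from WT was -1.17 ± 0.03 (SE, adjusted p = 1.2e-05) in undifferentiated and -1.16 ± 0.03 (SE, adjusted p = 8.8e-06) in differentiating MSCs. It fell with induction in both genotypes, with differences of -1.54 in WT and -1.53 in KO MSCs, and the interaction of genotype with induction was 0.02 ± 0.04 (SE, adjusted p = 0.77). It was the only member that was a DEG between genotypes in both states.

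*Itga10* (chr3:96645584-96664519, + strand), the subunit of a collagen receptor best known from cartilage and the bone surface, rose from 0.433 and 0.403 RPKM to 13.5 and 12.4 in WT MSCs and from 0.394 and 0.354 to 14.0 and 14.0 in KO MSCs. All 4 differentiating libraries were above all 4 undifferentiated ones, at 30.9 times the undifferentiated mean in WT and 37.4 times in KO MSCs. The differences were 4.65 ± 0.07 (SE, adjusted p = 4.5e-07) and 4.90 ± 0.07 (SE, adjusted p = 1.9e-07), and the interaction of genotype with induction missed the test at 0.24 ± 0.10 (SE, adjusted p = 0.11). No difference between genotypes passed the test, with an adjusted p of 0.22 before and 0.24 after induction.

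*Itga1* (chr13:114953096-115101964, - strand), whose annotated span also holds *Pelo* on the same strand, encodes the collagen IV receptor subunit and went from 13.3 and 13.9 RPKM to 10.4 and 9.19 in WT MSCs and from 9.75 and 9.37 to 12.0 and 13.2 in KO MSCs. It fell in WT by a difference of -0.48 and rose in KO MSCs with a difference of 0.39, and the interaction was 0.87 ± 0.11 (SE, adjusted p = 0.0024). *Itga2*, which pairs with beta 1 as the other classical collagen receptor of platelets and epithelia, lay between 0.146 and 0.380 RPKM in the 8 libraries. Both genes were named after their values were seen.

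Promoters of 3 members are shown: those of *Itga10* and *Itgbl1*, which had the largest differences with induction of the members tested, and that of *Itga11*, the member that was a DEG between genotypes in both states. Each runs from 250 bases before to 50 bases after the start in RefSeq (GRCm38.p6), 5′ to 3′ on the strand of the gene, and capitals mark any match to the motifs searched on both strands.
*Itga10* promoter, chr3:96645334-96645633, + strand: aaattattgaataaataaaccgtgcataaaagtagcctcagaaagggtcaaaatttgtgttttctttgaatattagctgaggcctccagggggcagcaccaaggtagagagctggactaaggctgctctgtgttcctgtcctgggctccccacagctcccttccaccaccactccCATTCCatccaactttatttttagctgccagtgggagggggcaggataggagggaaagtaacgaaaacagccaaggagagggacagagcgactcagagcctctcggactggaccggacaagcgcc
*Itgbl1* promoter, chr14:123659890-123660189, + strand: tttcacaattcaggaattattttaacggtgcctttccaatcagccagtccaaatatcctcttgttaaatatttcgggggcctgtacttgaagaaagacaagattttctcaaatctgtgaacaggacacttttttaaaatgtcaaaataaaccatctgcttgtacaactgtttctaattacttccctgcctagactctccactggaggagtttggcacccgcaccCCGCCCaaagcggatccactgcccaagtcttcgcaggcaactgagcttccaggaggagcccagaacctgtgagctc
*Itga11* promoter, chr9:62677605-62677904, + strand: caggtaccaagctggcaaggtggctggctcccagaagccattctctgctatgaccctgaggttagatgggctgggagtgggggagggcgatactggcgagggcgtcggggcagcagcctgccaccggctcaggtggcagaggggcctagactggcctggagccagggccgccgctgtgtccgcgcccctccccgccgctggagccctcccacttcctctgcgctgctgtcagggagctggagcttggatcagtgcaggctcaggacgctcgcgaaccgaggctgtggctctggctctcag

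The motifs were the RUNX core TGTGGT, AP-1 TGACTCA, TEAD GGAATG, the glucocorticoid receptor motif TGTTCT, the TATA box TATAAA, the E-box CAGCTG and the GC box GGGCGG. The *Itga10* promoter held 1 TEAD match, written there as its reverse complement, the *Itgbl1* promoter 1 GC box and the *Itga11* promoter none. Of all 32851 RefSeq promoters of this length 14.7% held a TEAD match and 35.7% a GC box. Of the 49 promoters of the 42 members that matched, 12.2% and 51% did, and the RUNX core was in 16.3% of them against 16.8% of all promoters. AP-1 was in 6.12% of member promoters and 5.2% of all, the glucocorticoid receptor motif in 12.2% and 19%, the TATA box in 4.08% and 13.6% and the E-box in 24.5% and 16.3%. The *Itga11* promoter had 16 CpG dinucleotides and the other 2 had 6 each, beside a median of 12 over the member promoters and 7 over all. A match describes the letters in this window and says nothing of binding.

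Among the RGD-binding alpha genes, *Itga5* and *Itgav* made up most of the signal. *Itga5* (chr15:103344286-103366763, - strand), the fibronectin receptor subunit, whose span holds *Mir6963* on the same strand, stood at 50.5 and 47.0 RPKM in undifferentiated WT, 48.1 and 48.3 in differentiating WT, 70.8 and 71.3 in undifferentiated KO and 32.5 and 30.8 in differentiating KO MSCs. WT libraries thus kept within 47.0 to 50.5 RPKM in both states, while the KO libraries were above all WT libraries before induction and below all of them after it. The difference of KO from WT was 0.54 ± 0.04 (SE, adjusted p = 0.00089) before and -0.61 ± 0.04 (SE, adjusted p = 0.00079) after induction. Induction gave -0.01 ± 0.04 (SE, adjusted p = 0.79) in WT and -1.16 ± 0.04 (SE, adjusted p = 3.3e-06) in KO MSCs, and the interaction was -1.15 ± 0.06 (SE, adjusted p = 0.00039).

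*Itgav* (chr2:83724397-83806916, + strand), the shared subunit of the vitronectin receptors, fell from 89.0 and 90.7 RPKM to 42.5 and 43.4 in WT MSCs and from 81.1 and 78.6 to 28.3 and 26.8 in KO MSCs. The differences were -1.06 ± 0.04 (SE, adjusted p = 4.4e-06) in WT and -1.53 ± 0.04 (SE, adjusted p = 7.1e-07) in KO MSCs, with an interaction of -0.47 ± 0.05 (SE, adjusted p = 0.0018). After induction KO was below WT with a difference of -0.64 ± 0.04 (SE, adjusted p = 0.00054), with no overlap of the libraries. Before induction the difference was -0.17, and it missed the test when any of the 4 undifferentiated libraries was left out (adjusted p up to 0.10). *Itga2b* (chr11:102453297-102470122, - strand), the platelet fibrinogen receptor subunit, went from 1.07 and 1.06 RPKM to 1.34 and 1.51 in WT MSCs and from 0.968 and 1.15 to 2.21 and 2.46 in KO MSCs. It rose in KO MSCs with a difference of 1.07 ± 0.11 (SE, adjusted p = 0.00017), which is 0.96 without replicate 1 of undifferentiated KO. Of 6 platelet and megakaryocyte markers 4 passed the minimum, and the sum of all 6 was 19.2 and 20.7 RPKM in undifferentiated WT, 54.6 and 53.4 in undifferentiated KO and 2.33 to 2.93 in differentiating libraries, with *Gp6* listed at 0 in all. *Ppbp* alone gave 15.7 and 17.5 RPKM, 52.3 and 50.9 RPKM and 0.322 to 0.493 RPKM of these sums. Of the other markers, *Gp1bb* lay between 1.20 and 1.78 RPKM, *Pf4* between 0.103 and 1.01 RPKM and *Gp1ba* stood at 0.451 and 0.486 RPKM in undifferentiated and 0.628 and 1.15 in differentiating KO libraries. The part of such cells in the *Itga2b* values was not tested. *Itga8*, the nephronectin receptor subunit, lay between 2.78 and 5.62 RPKM.

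The laminin-binding alpha genes were low. *Itga6* (chr2:71745616-71858416, + strand), the subunit of the main laminin receptors of basal epithelia, went from 3.72 and 3.79 RPKM to 2.57 and 2.70 in WT MSCs and from 4.60 and 4.22 to 2.02 and 1.60 in KO MSCs. It fell in KO MSCs with a difference of -1.25 ± 0.11 (SE, adjusted p = 9.9e-05), and the WT difference of -0.50 had an adjusted p of 0.0081, or 0.051 without replicate 1 of differentiating WT. *Itga7* (chr10:128933818-128958282, + strand), a laminin receptor subunit known from muscle, fell from 2.25 and 2.14 RPKM to 0.846 and 0.778 in WT MSCs and from 2.16 and 2.16 to 0.987 and 0.719 in KO MSCs. The differences were -1.33 ± 0.14 (SE, adjusted p = 0.00032) and -1.26 ± 0.14 (SE, adjusted p = 0.00026), and *Itga3* lay between 3.88 and 4.72 RPKM in all libraries. Of 6 markers of skeletal muscle only 2 passed the minimum, and all 6 summed to 1.06 to 2.00 RPKM. The part of such cells in the *Itga7* values was not tested.

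**Figure D2:**
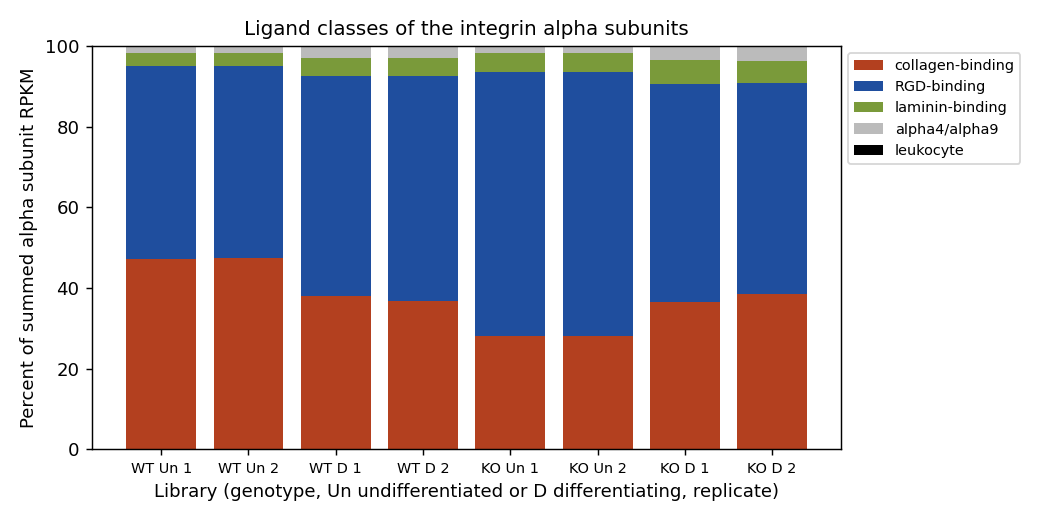
Percent of the summed RPKM of the 18 integrin alpha genes that each ligand class held, with 1 bar per library. The collagen-binding class held 47.2 and 47.3% in undifferentiated WT and 28.1 and 28.2% in undifferentiated KO libraries, and the 4 differentiating libraries lie between them.

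Summed over the family, the alpha genes stood at 299.6 RPKM in undifferentiated WT, 236 in undifferentiated KO, 178 in differentiating WT and 123 in differentiating KO MSCs as group means. The collagen-binding share was 47.3% in undifferentiated WT and 28.2% in undifferentiated KO MSCs, and 37.4% and 37.6% after induction. The RGD-binding share was 47.7% and 65.5% before, and 55.2% and 53.0% after induction. Laminin-binding genes held 3.28 to 5.85% in the 4 groups. The low collagen-binding share of undifferentiated KO MSCs came with *Itga11* at 23.8% of the family total against 42.5% in WT, and *Itga5* at 30.1% against 16.3%. After induction the class shares were near each other while the genes within the collagen-binding class were not: *Itga11* held 24.5% of the total in WT and 15.8% in KO MSCs, *Itga10* 7.26% and 11.4%, and *Itga1* 5.50% and 10.3%. These shares are descriptions of mRNA, with no test.

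Of the beta genes, *Itgb1* (chr8:128685654-128733200, + strand), the partner of most alpha subunits named here, was the most abundant member of all. It stood at 648 and 675 RPKM in undifferentiated WT, 451 and 455 in differentiating WT, 579.9 and 569.6 in undifferentiated KO and 388 and 350.2 in differentiating KO MSCs, which was 76.5 to 81.5% of the beta total in the 4 groups. It fell with induction by a difference of -0.55 in WT and of -0.64 in KO MSCs. Between genotypes it was -0.20 ± 0.06 (SE, adjusted p = 0.042) before induction, a call that was lost without any 1 of 6 libraries (adjusted p up to 0.18), and -0.30 ± 0.06 (SE, adjusted p = 0.010) after it, or an adjusted p of 0.063 without replicate 2 of differentiating WT.

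*Itgb5* (chr16:33829665-33949338, + strand), an alpha v partner that binds vitronectin, went from 144 and 148 RPKM to 115 and 117 in WT MSCs and from 121 and 120.5 to 109 and 105 in KO MSCs. It fell in both genotypes, with differences of -0.34 and -0.17. *Itgb3* (chr11:104608000-104670476, + strand), the other classical alpha v partner and a receptor for osteopontin, fell from 7.53 and 7.41 RPKM to 3.00 and 2.65 in WT MSCs and from 5.14 and 5.19 to 2.59 and 2.42 in KO MSCs. Its differences were -1.37 ± 0.07 (SE, adjusted p = 1.6e-05) and -1.02 ± 0.07 (SE, adjusted p = 3.1e-05), the second -0.97 without replicate 2 of differentiating KO, and before induction KO was below WT with a difference of -0.52 ± 0.07 (SE, adjusted p = 0.0038).

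*Itgb7* (chr15:102215995-102231944, - strand), a beta subunit known from lymphocytes, stood at 1.39 and 1.27 RPKM in WT against 2.85 and 2.85 in KO MSCs before induction, and 0.928 and 0.739 against 0.988 and 0.776 after it. The undifferentiated KO libraries were apart from the other 6, above WT with a difference of 1.05 ± 0.14 (SE, adjusted p = 0.0042), which is 0.99 without replicate 2 of undifferentiated WT. It fell with induction in KO MSCs with a difference of -1.60 ± 0.14 (SE, adjusted p = 0.00010). *Itgb8* (chr12:119158022-119238802, - strand), the partner of alpha v in the activation of latent TGF-β, rose from 1.60 and 1.31 RPKM to 2.28 and 2.11 in WT MSCs and from 0.774 and 0.836 to 1.84 and 1.96 in KO MSCs. Its differences with induction were 0.57 ± 0.11 (SE, adjusted p = 0.0043) and 1.15 ± 0.11 (SE, adjusted p = 0.00013), and undifferentiated KO was below WT with a difference of -0.77 ± 0.11 (SE, adjusted p = 0.0046).

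Levels under 1 RPKM were seen for the other beta genes that passed the minimum. *Itgb4*, the hemidesmosome subunit, rose from 0.170 to 0.278 RPKM over the undifferentiated libraries to 0.497 to 0.751 over the differentiating ones. *Itgb6*, an epithelial partner of alpha v, was at 0.420 and 0.405 RPKM in undifferentiated KO and between 0.0968 and 0.177 in the other 6 libraries. Its difference of KO from WT before induction was 0.98 ± 0.15 (SE, adjusted p = 0.0063), which became a DEG without replicate 1 of undifferentiated WT (1.08) and, just past the limit, without replicate 2 of undifferentiated KO. *Itga4*, the VCAM-1 receptor subunit, rose from 0.273 to 0.344 RPKM to 0.723 to 0.904, with differences of 1.34 in WT and 1.01 in KO MSCs, the latter 0.94 without replicate 2 of undifferentiated and 0.96 without replicate 2 of differentiating KO. *Itga9*, a tenascin receptor subunit, lay between 3.38 and 4.59 RPKM.

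*Itgam* and *Itgb2* form the CD11b/CD18 receptor of macrophages and neutrophils and were low in all libraries. *Itgam*, which encodes the CD11b that the beads selected against, went from 0.0908 and 0.139 RPKM to 0.293 and 0.356 in WT, and from 0.0463 and 0.0180 to 0.0399 and 0.0270 in KO MSCs. After induction KO was below WT with a difference of -1.67 ± 0.22 (SE, adjusted p = 0.0031). *Itgb2* went from 0.153 and 0.117 RPKM to 0.398 and 0.460 in WT, and from 0.0624 and 0.0985 to 0.0970 and 0.220 in KO MSCs. After induction the KO libraries were below the WT ones with a difference of -1.07 ± 0.27 (SE, adjusted p = 0.024). That call was lost without replicate 1 (adjusted p = 0.068) or replicate 2 (0.11) of differentiating WT, and the difference was -0.72 without replicate 1 of differentiating KO. The rise of *Itgb2* in WT, a difference of 1.17, had an adjusted p of 0.0099, or 0.052 without replicate 2 of undifferentiated WT and 0.051 without replicate 2 of differentiating WT.

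Leukocyte markers moved in part with these 2 genes. Of 13 such markers measured, 12 passed the minimum, and the summed level of all 13 was 22.5 and 23.5 RPKM in undifferentiated WT, 37.4 and 43.8 in differentiating WT, 11.5 and 10.8 in undifferentiated KO and 15.0 and 16.1 in differentiating KO libraries. *Lyz2*, lysozyme, held the largest part of these sums, at 12.8 and 13.4 RPKM in undifferentiated WT, 22.9 and 26.5 in differentiating WT, 3.43 and 3.19 in undifferentiated KO and 6.81 and 7.66 in differentiating KO MSCs. In KO MSCs 6 of the 12 were DEGs with lower levels before and 7 after induction, against 1.09% and 1.95% of all genes, and 0 were DEGs with higher levels, against 0.613% and 1.36%. By the adjusted p alone 2 of the 12 were higher in KO before induction and 1 after it, and *Cd14* was among them in both states, with differences of 0.78 and 0.46. With induction in WT 9 of the 12 rose and 3 fell, which were *Csf1r*, *Fcer1g* and *Cd53*. *Ptprc*, the gene of CD45, lay between 0 and 0.127 RPKM. The part of leukocytes in the *Itgam* and *Itgb2* values was not tested, and in bulk RNA fewer cells of a type and less RNA per cell cannot be told apart.

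*Itgbl1* (chr14:123659971-123975618, + strand) encodes a secreted protein with the cysteine-rich repeats of beta integrins, and it is known from cartilage and from metastasis to bone. It rose from 12.2 and 13.6 RPKM to 234 and 226 in WT MSCs and from 4.84 and 5.83 to 249.7 and 244 in KO MSCs. The differentiating libraries lay between 226 and 249.7 RPKM and the undifferentiated ones between 4.84 and 13.6 RPKM, so that after induction its mRNA level was above that of every integrin subunit but *Itgb1*. The differentiating mean was 17.8 times the undifferentiated one in WT and 46.3 times in KO MSCs. The differences were 4.15 ± 0.09 (SE, adjusted p = 1.2e-06) and 5.51 ± 0.09 (SE, adjusted p = 2.7e-07). Undifferentiated KO was below WT with a difference of -1.26 ± 0.09 (SE, adjusted p = 0.00066) while the difference of the differentiating groups was 0.10 ± 0.09 (SE, adjusted p = 0.43), and the interaction was 1.36 ± 0.13 (SE, adjusted p = 0.0013).

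**Figure D3:**
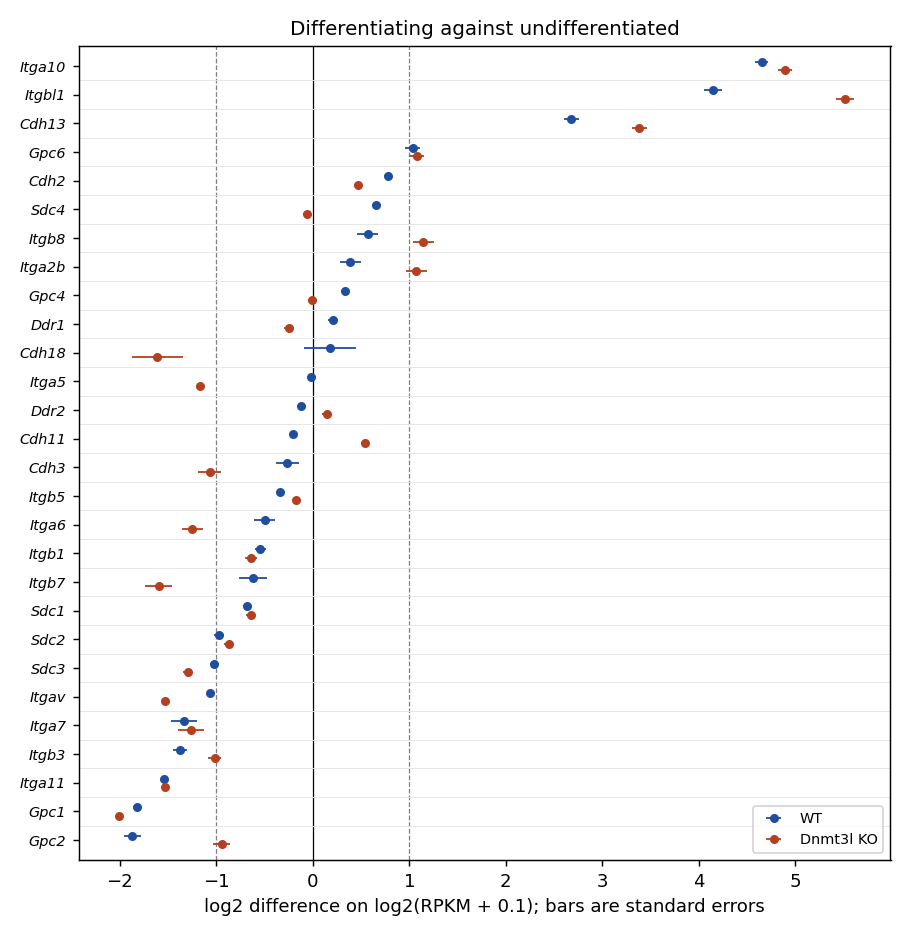
Differences of differentiating from undifferentiated MSCs on the log2(RPKM + 0.1) scale in WT and KO for the 28 members given with every library's value, with bars for the standard error and dashed lines at a difference of 1 in size. *Itga10*, *Itgbl1* and *Cdh13* lie to the right in both genotypes, *Gpc1*, *Gpc2* and *Itga11* to the left, and *Itga5*, *Cdh18* and *Itgb7* lie further left in KO than in WT MSCs.

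*Ddr1* and *Ddr2* are receptor tyrosine kinases that bind collagen without an integrin, and *Ddr2* is needed for normal bone growth. *Ddr2* (chr1:169972307-170110762, - strand) stood at 69.7 and 66.5 RPKM in undifferentiated WT, 63.9 and 61.4 in differentiating WT, 65.1 and 65.2 in undifferentiated KO and 69.2 and 75.0 in differentiating KO MSCs, and *Ddr1* (chr17:35681567-35704621, - strand) at 21.3 and 21.8 RPKM in undifferentiated WT, 24.1 and 25.7 in differentiating WT, 28.2 and 26.6 in undifferentiated KO and 23.9 and 22.2 in differentiating KO MSCs. No difference of either gene reached 2-fold. *Ddr1* was higher in undifferentiated KO with a difference of 0.35 ± 0.05 (SE, adjusted p = 0.0063), and fell with induction in KO MSCs with a difference of -0.25 ± 0.05 (SE, adjusted p = 0.0058). In WT it rose by 0.21 ± 0.05 (SE, adjusted p = 0.015), or 0.16 without replicate 2 of differentiating WT. Its interaction was -0.46 ± 0.08 (SE, adjusted p = 0.0060). The differences of *Ddr2* between genotypes and with induction lay between -0.12 and 0.20, and its interaction was 0.26 ± 0.07 (SE, adjusted p = 0.027). Each *Ddr2* result that passed the test, the interaction among them, missed it without any of 3 or more single libraries.

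All 4 syndecans were abundant, and 3 of them fell with induction. *Sdc1* (chr12:8771323-8793715, + strand), known from epithelia and plasma cells, went from 153 and 163 RPKM to 97.0 and 100.1 in WT MSCs and from 138 and 144 to 91.9 and 88.4 in KO MSCs. *Sdc2* (chr15:32920723-33034935, + strand), the syndecan of mesenchymal cells, went from 127 and 127 RPKM to 64.1 and 65.2 in WT MSCs and from 97.2 and 94.8 to 55.7 and 49.5 in KO MSCs. *Sdc3* (chr4:130792537-130826319, + strand), known from neural and musculoskeletal tissue, went from 44.6 and 41.8 RPKM to 21.0 and 21.4 in WT MSCs and from 36.6 and 35.9 to 15.2 and 14.2 in KO MSCs. In each of the 3 genes all differentiating libraries were below all undifferentiated ones, and the differences ran from -1.02 to -0.68 in WT and from -1.30 to -0.64 in KO MSCs. *Sdc3* was the DEG among them, and its WT difference was -0.98 without replicate 1 of undifferentiated WT. The WT difference of *Sdc2* was -0.97, and it became a DEG at -1.07 under median centring.

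*Sdc4* (chr2:164424247-164443887, - strand), the syndecan of focal adhesions that works with the fibronectin receptor, stood at 96.0 and 96.7 RPKM in undifferentiated WT, 148 and 156 in differentiating WT, 129.6 and 128 in undifferentiated KO and 128 and 119 in differentiating KO MSCs. The undifferentiated KO libraries were above the undifferentiated WT ones with a difference of 0.42 ± 0.04 (SE, adjusted p = 0.0020), and the differentiating KO libraries were below the differentiating WT ones with a difference of -0.30 ± 0.04 (SE, adjusted p = 0.0042). It rose in WT with a difference of 0.66 ± 0.04 (SE, adjusted p = 5.4e-05). In KO MSCs the difference was -0.06 ± 0.04 (SE, adjusted p = 0.25), with an interaction of -0.72 ± 0.06 (SE, adjusted p = 0.0010), and the sign of the KO difference turned to 0.09 under quantile normalization. As with *Itga5*, the KO libraries lay above WT before and below WT after induction. The share of *Sdc4* in the syndecan total went from 22.7 to 45.2% in WT and from 32.0 to 44.0% in KO MSCs as group means.

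The leading glypican differed between states. *Gpc1* (chr1:92831645-92860779, + strand), whose span holds *Mir149* on the same strand and overlaps *Ankmy1* on the other, is a broad binder of FGFs and fell from 76.3 and 73.1 RPKM to 20.6 and 21.4 in WT MSCs and from 59.6 and 58.9 to 14.9 and 14.5 in KO MSCs. The differences were -1.83 ± 0.04 (SE, adjusted p = 7.2e-07) and -2.01 ± 0.04 (SE, adjusted p = 2.8e-07), and KO was below WT with a difference of -0.33 ± 0.04 (SE, adjusted p = 0.0020) before and -0.51 ± 0.04 (SE, adjusted p = 0.00072) after induction. *Gpc4* (chrX:52053021-52165252, - strand), which modulates Wnt and FGF signals, went from 26.0 and 25.0 RPKM to 33.2 and 31.1 in WT MSCs and from 24.2 and 23.0 to 23.4 and 23.7 in KO MSCs, a rise in WT of 0.33 ± 0.05 (SE, adjusted p = 0.0010) with -0.01 ± 0.05 (SE, adjusted p = 0.91) in KO MSCs. After induction KO was below WT with a difference of -0.45 ± 0.05 (SE, adjusted p = 0.0014), and the interaction was -0.34 ± 0.06 (SE, adjusted p = 0.0089).

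*Gpc6* (chr14:116925315-117976544, + strand), which is mutated in a human dwarfism with short limbs, rose from 9.34 and 8.61 RPKM to 19.5 and 17.5 in WT MSCs and from 7.39 and 7.83 to 15.5 and 16.9 in KO MSCs. Its differences of 1.03 ± 0.08 (SE, adjusted p = 7.6e-05) and 1.08 ± 0.08 (SE, adjusted p = 3.7e-05) were near the 2-fold limit, and the WT value was 0.98 without replicate 2 of undifferentiated WT and 0.96 without replicate 1 of differentiating WT. *Gpc2* (chr5:138273655-138280005, - strand), a glypican of the developing nervous system, fell from 2.84 and 2.88 RPKM to 0.664 and 0.757 in WT MSCs and from 2.13 and 2.01 to 1.08 and 0.969 in KO MSCs. The differences were -1.87 ± 0.09 (SE, adjusted p = 1.3e-05) and -0.95 ± 0.09 (SE, adjusted p = 0.00013), with an interaction of 0.93 ± 0.13 (SE, adjusted p = 0.0033). *Gpc3*, known from overgrowth syndromes, rose from 0.00985 to 0.0293 RPKM over the undifferentiated libraries to 0.179 to 0.260 over the differentiating ones. *Gpc1* thus held 66.7% of the glypican total in undifferentiated WT and 29.0% in differentiating WT, and 64.0% and 26.4% in KO MSCs, and *Gpc4* became the largest share at 44.3% and 42.3%.

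**Figure D4:**
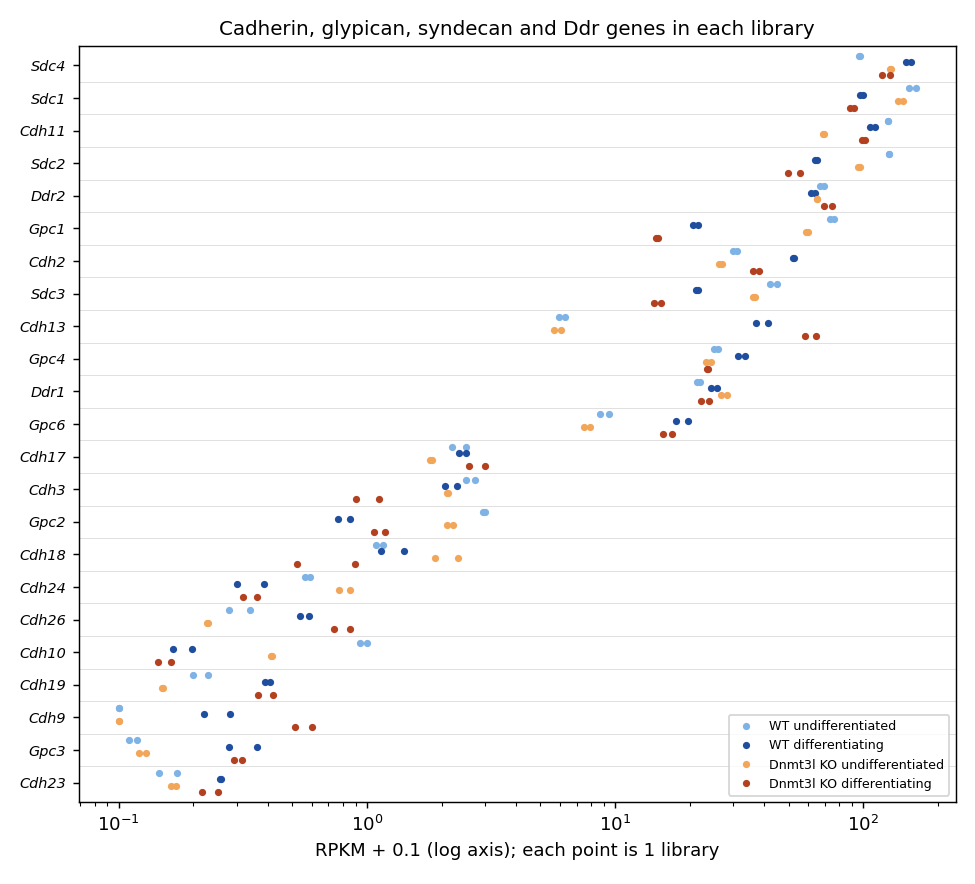
RPKM + 0.1 on a log axis for the 23 cadherin, glypican, syndecan and Ddr genes tested, with 1 point per library and colours for genotype and state. *Cdh13* lies to the right in the 4 differentiating libraries, *Gpc1* lies to the left in them, and *Cdh11* is lowest in the 2 undifferentiated KO libraries.

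Of 23 cadherin genes 12 were tested, and *Cdh11*, *Cdh2* and *Cdh13* held nearly all of the signal. *Cdh11* (chr8:102632095-102785642, - strand), osteoblast cadherin, stood at 125 and 126 RPKM in undifferentiated WT, 112 and 106 in differentiating WT, 68.7 and 69.1 in undifferentiated KO and 98.3 and 102 in differentiating KO MSCs. The undifferentiated KO libraries were below the other 6, at 0.549 of the WT level and a difference of -0.86 ± 0.04 (SE, adjusted p = 0.00014). Induction gave -0.20 ± 0.04 (SE, adjusted p = 0.0029) in WT and 0.54 ± 0.04 (SE, adjusted p = 2.8e-05) in KO MSCs, and the interaction was 0.74 ± 0.05 (SE, adjusted p = 0.00059). After induction the difference of KO from WT was -0.12 ± 0.04 (SE, adjusted p = 0.035), which missed the test when any of 6 libraries was left out (adjusted p up to 0.14).

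*Cdh2* (chr18:16588877-16809246, - strand), N-cadherin, rose from 29.9 and 30.8 RPKM to 52.0 and 52.3 in WT MSCs and from 26.7 and 26.2 to 37.8 and 35.7 in KO MSCs. The differences were 0.78 ± 0.04 (SE, adjusted p = 1.4e-05) and 0.47 ± 0.04 (SE, adjusted p = 5.9e-05), and after induction KO was below WT with a difference of -0.50 ± 0.04 (SE, adjusted p = 0.00081). *Cdh13* (chr8:118283733-119324921, + strand), T-cadherin, is tethered to the membrane by a lipid, lacks a tail for catenins and binds adiponectin. It rose from 6.19 and 5.82 RPKM to 41.4 and 36.8 in WT MSCs and from 5.57 and 5.98 to 58.2 and 64.3 in KO MSCs, or 6.51 and 10.6 times the undifferentiated mean. The differences were 2.68 ± 0.08 (SE, adjusted p = 2.6e-06) and 3.38 ± 0.08 (SE, adjusted p = 6.3e-07), with an interaction of 0.70 ± 0.11 (SE, adjusted p = 0.0052), and after induction the KO libraries were above the WT ones with a difference of 0.65 ± 0.08 (SE, adjusted p = 0.0024). As group means *Cdh13* went from 3.54 to 18.8% of the cadherin total in WT and from 5.33 to 29.9% in KO MSCs.

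*Cdh3* (chr8:106510891-106557297, + strand), P-cadherin, stood at 2.64 and 2.41 RPKM in WT against 2.00 and 2.01 in KO MSCs before induction, and 1.97 and 2.21 against 1.02 and 0.800 after it. The differentiating KO libraries were below the other 6, and KO was below WT there with a difference of -1.12 ± 0.12 (SE, adjusted p = 0.0017), which is -0.97 without replicate 2 of differentiating KO. It fell in KO MSCs with a difference of -1.07 ± 0.12 (SE, adjusted p = 0.00030), or -0.91 without the same library. *Cdh18* (chr15:22549022-23474418, + strand), a cadherin of the nervous system, stood at 0.993 and 1.06 RPKM in WT against 2.22 and 1.78 in KO MSCs before induction, and 1.04 and 1.31 against 0.796 and 0.421 after it. It fell in KO MSCs with a difference of -1.61 ± 0.27 (SE, adjusted p = 0.0019), while WT gave 0.18 ± 0.27 (SE, adjusted p = 0.59). The interaction was -1.79 ± 0.38 (SE, adjusted p = 0.014) and had an adjusted p of 0.052 to 0.057 without replicate 1 of undifferentiated WT, replicate 2 of differentiating WT or replicate 1 of undifferentiated KO.

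The remaining cadherin DEGs were below 1 RPKM in all libraries. *Cdh10*, a cadherin of the nervous system like *Cdh9*, was at 0.838 and 0.900 RPKM in undifferentiated WT, 0.311 and 0.315 in undifferentiated KO and at most 0.0971 in differentiating libraries, and KO was below WT before induction with a difference of -1.23 ± 0.16 (SE, adjusted p = 0.0035). *Cdh9* was listed at 0 in the 4 undifferentiated libraries, at 0.121 and 0.180 RPKM in differentiating WT and at 0.412 and 0.501 in differentiating KO MSCs. The fitted difference of KO from WT after induction was 1.16 ± 0.20 (SE, adjusted p = 0.0075), or 0.99 without replicate 1 of differentiating WT. With a pseudocount of 0.01 it missed the test (adjusted p = 0.091). *Cdh26* and *Cdh19* rose in KO MSCs with differences of 1.80 and 1.38, and *Cdh24* fell by a difference of -1.27. In WT MSCs these genes moved the same way and passed the test without being DEGs, with differences of 0.87, 0.89 and -0.76. The interaction missed the test for *Cdh19* (adjusted p = 0.14) and *Cdh24* (adjusted p = 0.13). For *Cdh26* it was 0.93 ± 0.22 (SE, adjusted p = 0.019). *Cdh17*, known from intestine, lay between 1.69 and 2.89 RPKM, and *Cdh23*, the hair cell cadherin, between 0.0447 and 0.159 RPKM. Of 5 markers of Schwann cells and glia, which share *Cdh19*, only 2 passed the minimum. All 5 summed to 2.38 to 9.76 RPKM, higher in the differentiating libraries. The part of such cells in the *Cdh19* values was not tested.

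Another 17 members were below the minimum: *Cdh1*, *Cdh4* to *Cdh8*, *Cdh12*, *Cdh15*, *Cdh16*, *Cdh20*, *Cdh22*, *Gpc5*, *Itgad*, *Itgae*, *Itgal*, *Itgax* and *Itgb2l*. *Itgb2l* was listed at 0 in all libraries. None of the others passed 0.174 RPKM in a library, the level of *Cdh1*, E-cadherin, in replicate 1 of differentiating KO. *Cdh5*, VE-cadherin, was at most 0.0267 RPKM. The 8 endothelial markers, of which 3 passed the minimum, summed to 1.44 to 4.93 RPKM, higher in the differentiating libraries. At the estimated depth 3 reads on a member would give between 0.00411 and 0.0309 RPKM, which covers counting error only.

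**Figure D5:**
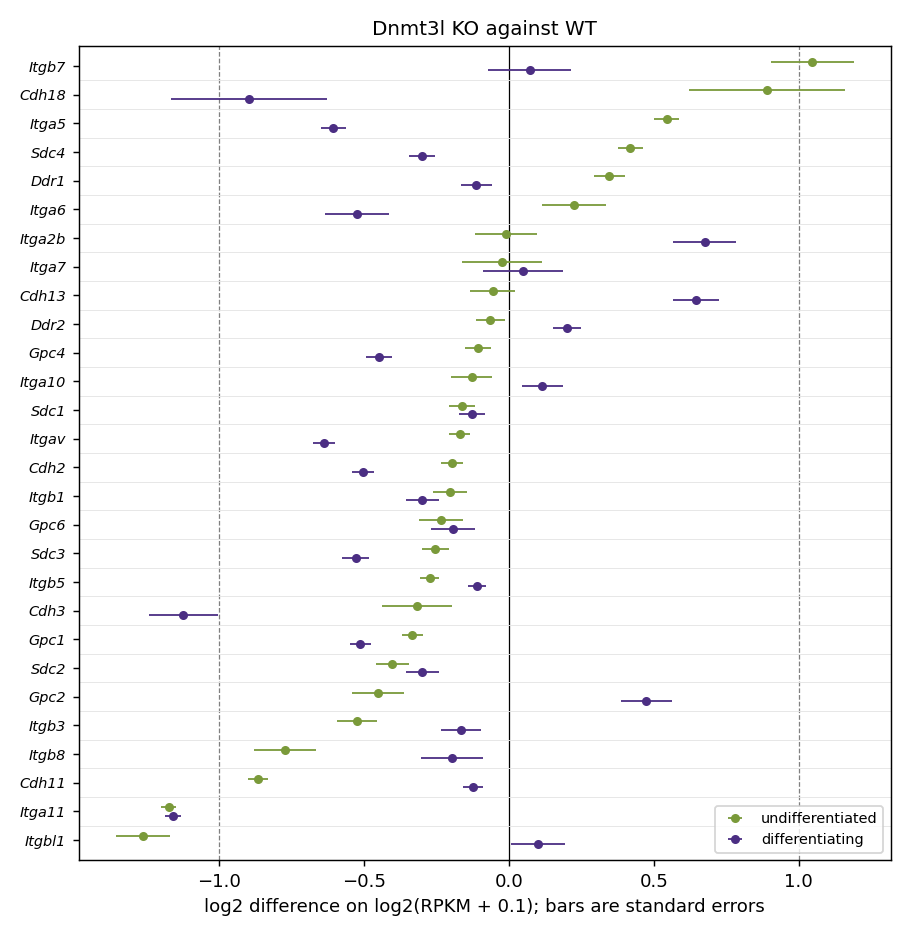
Differences of KO from WT MSCs on the log2(RPKM + 0.1) scale in undifferentiated and differentiating cells for the 28 members given with every library's value, with bars for the standard error and dashed lines at a difference of 1 in size. *Itga11* lies beyond -1 in both states, *Itgb7* beyond 1 and *Itgbl1* beyond -1 in undifferentiated cells, and *Itga5*, *Sdc4* and *Cdh18* have opposite signs in the 2 states.

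The interaction of genotype and induction, which asks whether induction moved a member differently in KO and WT MSCs, called 5 members, 10.9% of those tested against 6.17% of all genes. By the adjusted p alone 27 of the 46 passed, against 39.4% of all genes. *Itgbl1* and *Cdh9* were positive and *Itga5*, *Itgb6* and *Cdh18* negative. The difference between genotypes passed the test with opposite signs in the 2 states for *Itga5*, *Sdc4*, *Itga1*, *Gpc2* and *Cdh18*. *Itga5*, *Sdc4* and *Cdh18* were higher in KO before and lower after induction, and *Itga1* and *Gpc2* were the other way round. *Cdh18* missed the test without any of 6 libraries before (adjusted p up to 0.21) and any of 7 after induction (up to 0.19). The *Gpc2* difference before induction, -0.45 ± 0.09 (SE, adjusted p = 0.013), missed the test without any of the 4 undifferentiated libraries (adjusted p up to 0.078).

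Intracellular and extracellular partners were read from the same fit. Of 22 focal adhesion genes tested, 3 were DEGs with higher and 3 with lower levels after induction in WT, and 3 and 7 in KO MSCs, beside 9.69% and 4.63% of all genes in WT and 13% and 9.87% in KO MSCs. None of the 22 differed by this limit between genotypes in either state, where few of all genes did. These shares were 0.613% higher and 1.09% lower before, and 1.36% and 1.95% after induction. By the adjusted p alone 12 of them (54.5%) passed between genotypes before and 17 (77.3%) after induction, beside 32.2% and 40.7% of all genes. *Flna*, filamin A, which ties integrin tails to actin and was the most abundant of them, fell from 589 and 579 RPKM to 271 and 275 in WT MSCs and from 609 and 599 to 207 and 185 in KO MSCs, with differences of -1.09 and -1.63. *Tns1*, tensin 1, a protein of mature fibrillar adhesions, rose from 12.4 and 10.6 RPKM to 44.8 and 43.2 in WT MSCs and from 17.0 and 16.9 to 38.5 and 46.4 in KO MSCs, with differences of 1.93 and 1.31. Chosen after their values were seen, *Vcl* (vinculin) and *Fermt2* (kindlin-2) fell in both genotypes, *Vcl* by differences of -1.13 and -1.59 and *Fermt2* of -1.45 and -1.72. *Actn4* and *Parvb*, which link adhesions to actin, fell more with induction in KO than in WT MSCs. Their interactions were -1.15 ± 0.08 (SE, adjusted p = 0.00064) and -1.36 ± 0.17 (SE, adjusted p = 0.0025). As group means *Actn4* went from 101 to 81.1 RPKM in WT and from 142 to 51.5 in KO MSCs. *Parvb* went from 2.67 to 2.16 RPKM in WT and from 4.76 to 1.46 in KO MSCs.

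Of 12 integrin ligand genes tested, 4 were DEGs with higher and 2 with lower levels after induction in WT, and 5 and 3 in KO MSCs, beside 9.69% and 4.63% of all genes in WT and 13% and 9.87% in KO MSCs. *Ibsp*, bone sialoprotein, a ligand of alpha v beta 3 that is also on the list of osteoblast markers, rose from 49.5 and 51.3 RPKM to 729 and 661 in WT MSCs and from 20.2 and 19.7 to 386 and 313 in KO MSCs, with differences of 3.78 and 4.11. It was lower in undifferentiated KO with a difference of -1.33 ± 0.10 (SE, adjusted p = 0.00073). The 9 osteoblast markers as a sum, *Ibsp* included, went the other way there, at 1357 and 1225 RPKM in WT against 1513 and 1587 in KO MSCs. After induction the sum was 2321 and 2097 RPKM in WT against 1239 and 1170 in KO MSCs. Both sums follow the most abundant markers and do not give the direction of each marker. *Fn1*, fibronectin, the most abundant ligand, lay between 501 and 804 RPKM, and none of its differences passed the test. *Tnc*, tenascin C, chosen after its values were seen, fell from 168 and 169.6 RPKM to 49.1 and 46.5 in WT MSCs and from 154 and 152 to 18.8 and 15.1 in KO MSCs, and differentiating KO was below WT with a difference of -1.50 ± 0.10 (SE, adjusted p = 0.00064). *Lama1*, chosen likewise, encodes a laminin chain and stood at 3.46 and 3.27 RPKM in WT against 0.921 and 0.867 in KO MSCs before induction, and 0.197 and 0.171 against 0.138 and 0.158 after it.

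For the heparan sulfate chains of syndecans and glypicans, 23 genes of synthesis and editing were tested. In WT 2 were DEGs with higher and 4 with lower levels after induction, and 3 and 4 in KO MSCs, where the shares of all genes were the 9.69%, 4.63%, 13% and 9.87% given above. None was a DEG between genotypes in either state, beside 0.613% higher and 1.09% lower of all genes before, and 1.36% and 1.95% after induction. By the adjusted p alone 10 (43.5%) passed between genotypes before and 13 (56.5%) after induction, beside 32.2% and 40.7% of all genes. *Hs3st1*, a 3-O-sulfotransferase, rose from 1.44 and 1.21 RPKM to 3.23 and 2.71 in WT MSCs and from 0.965 and 0.897 to 3.31 and 4.29 in KO MSCs, with differences of 1.11 and 1.91. *Sulf1*, a 6-O-endosulfatase at the cell surface, fell from 123 and 127 RPKM to 63.8 and 60.6 in WT MSCs and from 102 and 99.8 to 55.0 and 50.2 in KO MSCs. *Sulf2*, its close relative, chosen after its values were seen, rose from 31.4 and 29.7 RPKM to 76.7 and 75.0 in WT MSCs and from 29.2 and 29.6 to 98.6 and 103 in KO MSCs, with differences of 1.31 and 1.77.

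Of 5 catenins tested, *Ctnnd2* was the only DEG, with a rise of 1.50 in WT and 1.26 in KO MSCs. Between genotypes 0 differed by more than 2-fold. With induction 9.69% of all genes were DEGs with higher and 4.63% with lower levels in WT, and 13% and 9.87% in KO MSCs. Between genotypes the shares were 0.613% and 1.09% before and 1.36% and 1.95% after induction, and 6.17% were DEGs by the interaction. *Ctnnb1*, beta-catenin, lay between 226 and 287 RPKM in the 8 libraries, at 265 and 274 in undifferentiated WT against 232 and 226 in undifferentiated KO. *Ctnnd1*, chosen after its values were seen, stood at 66.0 and 62.8 RPKM in WT against 48.9 and 49.0 in KO MSCs before induction. After it the values were 55.7 and 56.0 against 32.4 and 35.0. KO means were above WT for *Ctnnd2* before induction (0.526 against 0.422 RPKM) and for *Ctnnd2* and *Jup* after it. Among 6 adaptors of syndecans and cadherins 0 were DEGs in any comparison, with 3 past the adjusted p in either comparison of genotypes, 5 and 6 in those of induction and 4 in the interaction, where 32.2%, 40.7%, 64.4%, 72.9% and 39.4% of all genes passed. *Sdcbp*, syntenin, the most abundant, lay between 107 and 134 RPKM.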

How the data were processed

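RPKM values per gene and library, deposited by the authors, were the start of all calculations. The authors aligned strand-specific, rRNA-depleted, single-end reads to mm10 with TopHat2 2.1.0 and made the RPKM with Cufflinks 2.2.1 and Cuffdiff, without pooling the libraries of a group, and how libraries were scaled is not given in the sources used here. Values of log2(RPKM + 0.1) of the 15342 genes that averaged 0.1 RPKM or more were fitted with limma 3.58.1 in R 4.3.3, with 4 group means over the 8 libraries, a variance trend and Benjamini-Hochberg adjustment over all genes tested. The interaction is the KO minus the WT effect of induction. Members and lists were chosen with earlier results of these data known. Named with every library's value were tested members that were DEGs in at least 1 of the 5 comparisons with a group mean of at least 1 RPKM, the 3 most abundant of each family and, of each partner list, the DEG with the largest difference and the most abundant gene. All further genes were picked with their values in view. The RPKM gave whole reads for 74.1% of 3313 low values within 0.05 reads, where 10% would be whole by chance at a fixed depth. Depth was itself picked to make this share largest, so the 2 shares are not like for like. Depth is thus an estimate, and no count test was run. On simulated data for the comparison of differentiating KO and WT MSCs, 199 of 200 changed genes among 15342 were recovered with 1 false call. All planted changes were well past the log2 limit of 1 and in genes at about 1 RPKM or more. The simulation therefore does not cover calls near the limit or genes at lower levels. Gene positions come from GENCODE for mm10 and promoters from RefSeq, read with Python 3.11.15 and pandas 2.3.3. Alternatives changed the pseudocount, the expression minimum, the normalization, the variance trend, the libraries in the fit, the replicate block and the fold limit, and left out each library in turn.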

Additional observations from a re-analysis of the deposited data

Results flagged for a closer look

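These 5 members responded to induction differently in the 2 genotypes by the interaction test and by more than 2-fold. *Itga5* had an interaction of -1.15 ± 0.06 (SE, adjusted p = 0.00039) on the log2(RPKM + 0.1) scale, with levels of 50.5 and 47.0 RPKM in undifferentiated WT, 48.1 and 48.3 in differentiating WT, 70.8 and 71.3 in undifferentiated KO and 32.5 and 30.8 in differentiating KO MSCs. *Itgbl1* had 1.36 ± 0.13 (SE, adjusted p = 0.0013), from a lower start in KO MSCs and near equal levels after induction. *Itgb6* had -1.11 ± 0.22 (SE, adjusted p = 0.010) at levels of at most 0.420 RPKM. *Cdh9* had 1.16 ± 0.29 (SE, adjusted p = 0.024). Both of its undifferentiated groups were listed at 0, so this value is the difference of KO from WT after induction and not a separate result. The call depends on the pseudocount (adjusted p = 0.21 with 0.01 in place of 0.1), and the value was 0.99 without replicate 1 of differentiating WT. *Cdh18* had -1.79 ± 0.38 (SE, adjusted p = 0.014), which missed the test without any of 3 libraries, replicate 1 of undifferentiated WT, replicate 2 of differentiating WT or replicate 1 of undifferentiated KO (adjusted p = 0.052 to 0.057). Other members passed the interaction test just short of the fold limit: *Cdh10* at 0.99, *Itgb7* at -0.98 and *Cdh26* at 0.93. *Cdh10* was a DEG under quantile normalization (1.05) and median centring (1.01), and *Itgb7* (-1.02) and *Cdh26* (1.23) with a pseudocount of 0.01. *Itgam*, which missed the test in the main fit, was a DEG under quantile normalization (-1.03). Which members are flagged thus depends on the setting. Groups of 2 libraries are too small for a search for outliers.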

How the results depend on the processing

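The counts of DEGs among the members depended most on the pseudocount and on the fold limit. With a pseudocount of 1 there were 2 and 1 in the comparisons of genotypes before and after induction, 8 and 9 in those of induction in WT and KO MSCs, and 3 in the interaction, in place of 4, 5, 17, 26 and 5. Without a fold limit there were 25, 26, 40, 39 and 27. With a mean of at least 0.5 RPKM 2 were left between differentiating genotypes and 3 in the interaction. Leaving out each library gave 3 to 5 and 3 to 5 between genotypes, 16 to 17 and 23 to 27 with induction and 4 to 8 in the interaction, with 3 between differentiating genotypes without replicate 1 of differentiating WT and 8 in the interaction without replicate 1 of differentiating KO. The difference of *Sdc4* with induction in KO MSCs turned from -0.06 to 0.086 under quantile normalization, and the cause was not tested. Median centring moved the median of all genes by up to -0.101, in WT with induction, and took *Gpc6* in both genotypes and *Itga2b* and *Itga4* in KO MSCs under the fold limit, at 0.93 to 0.99. Quantile normalization took *Itgb7* before induction, *Itgav*, *Itgb2*, *Itgb4* and *Sdc3* in WT and *Cdh19*, *Gpc3*, *Itga2b*, *Itga4*, *Itgb4* and *Itgb8* in KO MSCs under it, at 0.69 to 0.97 in size, each with an adjusted p that still passed in limma.

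Samples with the same replicate number did not deviate together (correlations from -0.0924 to 0.0304), and the fit with the replicate block gave 4, 5, 17, 26 and 5 DEGs, as without the block. Depth limits members under 0.1 RPKM, and with 2 libraries in a group the spread rests on 4 residual degrees of freedom.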
